A study of Mus musculus with 4 samples.

Results

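The 37 genes described here are Sox, Pax, Gata and sine oculis homeobox (Six2 to Six6) genes that the deposited H3K27me3 table lists outside the X chromosome, chosen by name alone (the family name followed by a number). They comprise 18 Sox, 9 Pax, 5 Gata and 5 sine oculis homeobox genes (Six2 to Six6) on 16 of the 19 autosomes, of 22690 genes analysed and 19835 autosomal genes with a value in both genotypes. All 37 had both values. The series measured trimethylation of histone H3 at lysine 27 (H3K27me3) by chromatin immunoprecipitation and sequencing (ChIP-seq) in mouse embryonic fibroblasts, mesenchymal cells cultured from E13.5 female fetuses of strain C57BL6/J. One genotype was Smchd1 +/+ (called WT) and the other Smchd1 MD1/MD1 (called MD1), which the series describes as deficient for SmcHD1, a chromatin protein of the SMC family. Each genotype had 1 H3K27me3 library (antibody CMA323) and 1 input library without antibody, 4 libraries in all. The study asks what SmcHD1 does for the epigenetic states that keep the X chromosome inactive, and the autosomal members are a view of the same libraries away from the X.

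These genes encode transcription factors that specify tissues in the embryo. Sox proteins bind DNA through an HMG box, Pax proteins through a paired domain, Gata proteins through zinc fingers and the proteins of Six2 to Six6 through a homeodomain with a conserved domain beside it. In cells that do not use them, such developmental regulators are classic targets of the Polycomb repressive complexes. PRC2 places H3K27me3 over the gene and its CpG-rich promoter, and genes in use lack the mark.

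The values are log2 enrichments per gene as the authors deposited them, so 1 unit is a 2-fold step. The values behave as ratios of whole numbers, but what each was divided by is not given in the sources read here, so comparisons of level between genes assume that it covers the same interval in numerator and denominator. With 1 library of each kind there is no replicate error, no test between genotypes was possible, and a difference between genotypes cannot be told apart from one between libraries. The difference is the MD1 value minus the WT value, and levels given in pairs are WT first and MD1 second. Over all autosomal genes the median difference was -0.27, and only 31.0% of them had a positive difference. This varied with level. Among the 3108 autosomal genes whose mean of both levels was at least 1, the median difference was 0.12 and 65.6% were positive. A level-matched difference is therefore given too, from which the median difference of the 500 autosomal genes closest in mean level, taken from the gene's own length quartile, has been subtracted. The SD of the difference among those 500 genes (the matched SD) shows how widely genes of like level and length scattered between these libraries.

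Most members carried H3K27me3 at levels near the top of the genome, in both genotypes. In WT their median level was 1.76 (quartiles 0.34 and 2.29), and 1.49 was the median in MD1 (quartiles 0.10 and 2.32), against autosomal medians of -0.78 and -0.90. The member medians stood at percentiles 94.9 and 90.8 of autosomal genes. A level of at least 1 in both genotypes was found at 22 members (59.5%), against 13.5% of autosomal genes. A level below 0 in both was found at 7 members (18.9%), against 61.9% of autosomal genes. The other 8 lay between. Among the most enriched 5% of autosomal genes were 18 members in WT and 17 in MD1.

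Few members differed by 2-fold between the genotypes. Of the 37, 1 was at least 2-fold lower in MD1 (2.7%), Sox15, where 20.4% of autosomal genes were. At least 2-fold higher was 1 member (2.7%), Sox4, where 1.61% of autosomal genes were. The median difference over the members was -0.02 (quartiles -0.25 and 0.23), which became 0.26 once the autosomal median was subtracted (centring). Level-matched, the members' median difference was -0.03. At a mean level of at least 1, where 22 members lay, the autosomal median difference was 0.12 rather than the negative value used for centring. Of the 37, 29 (78.4%) differed by less than 0.5 in either direction, against 55.3% of autosomal genes. At a mean level of at least 1, 82.4% of autosomal genes and 20 of 22 members (90.9%) did. Of 4045 autosomal genes at least 2-fold lower, 33 had a mean level of at least 1. Of the 3108 autosomal genes at that level 1.06% were lower by that limit and 1.77% were higher, and of the 22 members at that level none was either. Across genes, which are not independent replicates and share both libraries, WT and MD1 levels of the 37 members had a Pearson r of 0.96, beside 0.95 over all autosomal genes.

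**Figure D1:**
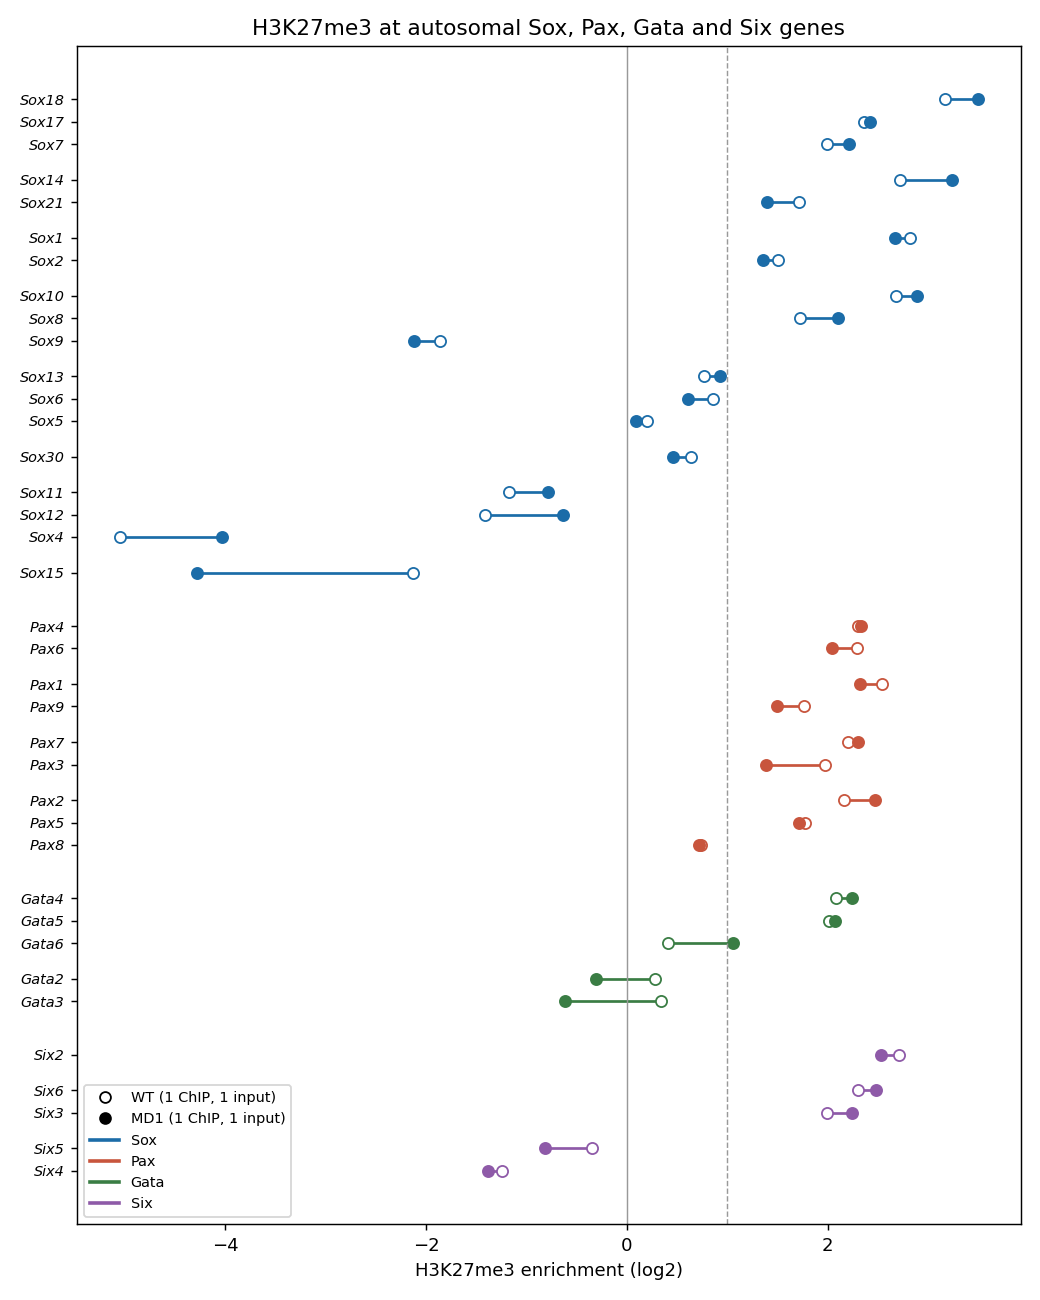
H3K27me3 enrichment (log2, horizontal axis) of each of the 37 members in WT (open circle) and MD1 (filled circle), 1 ChIP and 1 input library each, grouped by family (colour) and subgroup (gaps). The solid line marks 0 and the dashed line 1, and 22 members lie to the right of 1 in both genotypes while 7, led downward by Sox4 and Sox15, lie to the left of 0.

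The sequence before each gene's start was examined because CpG-rich promoters are where Polycomb complexes are known to act. RefSeq promoter windows on GRCm38.p6, from 250 bases before to 50 bases after the start, were found for 28 of the 37 members by symbol. The members without one were Gata4, Gata6, Pax3, Pax4, Sox7, Sox9, Sox10, Sox17 and Sox18. The upstream 250 bases of 4 members are shown, 5′ to 3′ on the gene's strand with each CG dinucleotide in capitals. The first is a strongly marked Sox gene (Sox14, chr9:99876171-99876420, minus strand). Next are a Sox gene with little mark and a middling CpG count (Sox11, chr12:27342719-27342968, minus strand) and a CpG-poor one with little mark (Sox15, chr11:69654787-69655036, plus strand). The last is the Gata gene with the largest difference, a lower value in MD1, described below (Gata3, chr2:9878601-9878850, minus strand).
Sox14: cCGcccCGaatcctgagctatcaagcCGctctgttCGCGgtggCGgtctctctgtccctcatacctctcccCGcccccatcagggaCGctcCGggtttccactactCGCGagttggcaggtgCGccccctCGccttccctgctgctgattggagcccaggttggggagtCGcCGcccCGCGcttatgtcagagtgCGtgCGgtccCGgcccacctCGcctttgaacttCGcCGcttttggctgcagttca
Sox11: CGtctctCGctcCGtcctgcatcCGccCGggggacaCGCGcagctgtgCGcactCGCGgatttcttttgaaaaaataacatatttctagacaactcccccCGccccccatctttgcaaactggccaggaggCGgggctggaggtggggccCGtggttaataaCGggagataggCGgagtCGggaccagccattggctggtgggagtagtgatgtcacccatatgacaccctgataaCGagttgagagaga
Sox15: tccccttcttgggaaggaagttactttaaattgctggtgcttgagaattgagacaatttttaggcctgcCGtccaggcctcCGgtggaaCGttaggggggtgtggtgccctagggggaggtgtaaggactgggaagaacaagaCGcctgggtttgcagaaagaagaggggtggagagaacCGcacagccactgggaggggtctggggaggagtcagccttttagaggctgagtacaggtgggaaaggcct
Gata3: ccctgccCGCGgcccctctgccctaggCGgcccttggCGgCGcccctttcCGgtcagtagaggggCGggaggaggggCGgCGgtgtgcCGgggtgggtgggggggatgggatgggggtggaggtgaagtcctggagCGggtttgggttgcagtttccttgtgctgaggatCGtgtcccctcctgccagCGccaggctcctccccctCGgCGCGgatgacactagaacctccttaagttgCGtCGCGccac
These stretches hold 23, 17, 5 and 19 CG dinucleotides. The dinucleotide CG reads the same on both strands, and 94.6% of all windows in the table hold at least 1.

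Counted over the 300-base window, and taking the window with most CG where a gene has several, the 28 members had a median of 21 CG (quartiles 13.8 and 27.2), against 17 (quartiles 6 and 27) over 14749 autosomal genes with a window. The members ranged from 3 at Sox5 to 47 at Sox12. On both sides of a split at 20 CG, a larger share of the members than of all autosomal genes was marked. Of the 15 members with over 20 CG, 9 (60%) had a WT level of at least 1, whereas of 6051 autosomal genes with over 20 CG 8.81% did. The median WT level of those 15 members was 1.71, and that of the 6051 genes was -1.88. With 20 or fewer CG, 6 of 13 members (46.2%) and 18.4% of 8698 autosomal genes reached 1. The split does not match CpG counts, since the median in that lower set was 13 for the members and 7 for the autosomal genes. Over all autosomal genes the WT level was lower where CG was more frequent (Spearman rho -0.41). Among the 28 members rho was 0.25, and CpG-rich windows belonged both to strongly marked genes such as Sox1 (37 CG) and Six2 (37 CG) and to weakly marked ones such as Sox12. These are descriptions across genes that share the same libraries.

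**Figure D2:**
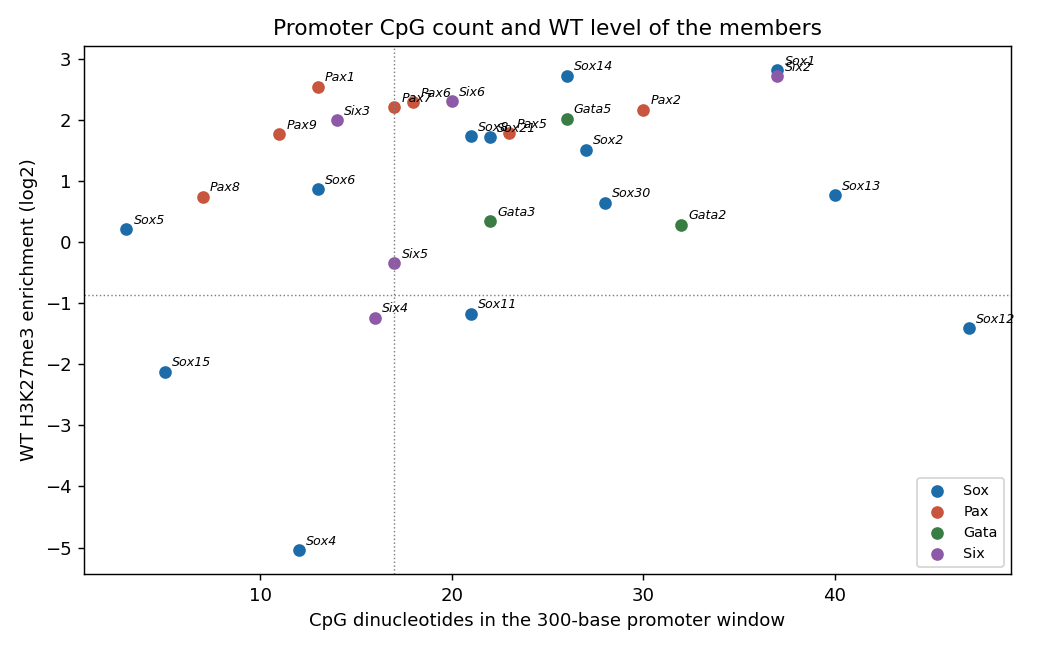
WT H3K27me3 enrichment (log2, vertical axis) against the number of CG dinucleotides in the 300-base promoter window (horizontal axis) for the 28 members with a window, coloured by family. Dotted lines mark the medians of autosomal genes, 17 CG and a level of -0.87, and all members but Sox4, Sox11, Sox12, Sox15 and Six4 lie above the horizontal line.

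Levels differed more between Sox genes than between the genotypes. The 18 Sox genes had a median of 1.19 in WT and 1.14 in MD1 and spanned the widest range of the families, from -5.04 to 3.17 in WT. Of these, 9 were at least 1 in both genotypes and 5 were below 0 in both. The median difference was 0.11, or 0.10 level-matched, with 10 of 18 differences positive.

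The SoxF genes Sox7, Sox17 and Sox18, regulators of endothelium and, for Sox17, of endoderm, were all strongly marked. Sox18 (mm9, chromosome 2, 181404542 to 181406345) had the highest mean level of any member, at 3.17 in WT and 3.49 in MD1. Sox17 stood at 2.36 and 2.42. Sox7 stood at 1.99 and 2.22. All 3 were in the top 5% of autosomal genes in both genotypes. The neural SoxB genes were marked as well. Sox1, expressed in the early neural plate, stood at 2.81 in WT and 2.67 in MD1. Sox2, a factor of pluripotent and neural stem cells, stood at 1.51 and 1.35. Sox14, a regulator of interneuron identity whose promoter is printed above, stood at 2.72 and 3.24, and Sox21 at 1.71 and 1.39. The SoxB2 pair therefore differed in opposite directions, by 0.52 at Sox14 and by -0.32 at Sox21, each within the matched SD of 0.55 and 0.51. Sox1 and Sox2 lie wholly inside longer listed genes, Gm5607 and Sox2ot, and ChIP reads carry no strand. Gm5607 stood at 2.51 and 2.71 and Sox2ot at 1.58 and 1.60.

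The SoxE genes spanned the widest range of any subgroup. Sox10, a factor of glia and melanocytes, stood at 2.68 in WT and 2.88 in MD1. Sox8 stood at 1.73 and 2.11. Sox9 (chromosome 11, 112643524 to 112649071), which drives cartilage and testis development, stood at -1.85 and -2.11, at percentiles 31.7 and 35.9 of autosomal genes. Sox9 was lower than its surroundings. Its listed neighbours on each side, BC006965 at a distance of 70.9 kb and Gm11681 at 5.0 kb, stood at 0.40 and 0.48 in WT and at 0.51 and 0.81 in MD1. The SoxD genes, of which Sox5 and Sox6 encode partners of Sox9 in cartilage, lay between these extremes. Sox13 stood at 0.77 and 0.93. Sox6 stood at 0.86 and 0.61. Sox5 stood at 0.21 and 0.10. Sox5 and Sox6 are also the longest members, 381144 and 567873 bases, so that their values average over far more sequence than a promoter. Their differences of -0.11 and -0.25 stood against matched SDs of 0.25 and 0.23.

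All 3 SoxC genes, which act in progenitors of many tissues including mesenchyme, were below 0 in both genotypes, and all 3 were higher in MD1. Sox11 stood at -1.18 in WT and -0.79 in MD1. Sox12 stood at -1.41 and -0.63. Sox4 (chromosome 13, 29042599 to 29045551) stood at -5.04 and -4.03 and was the least marked member, at percentile 0.066 of autosomal genes in WT and 9.90 in MD1. The level-matched differences were 0.53, 0.88 and 2.65, against matched SDs of 0.50, 0.91 and 1.23. In lowest terms the ratios behind the Sox4 values were 1 to 34 in WT and 1 to 16 in MD1, so each may rest on a single ChIP read. With 0.01 added to the linear ratios Sox4 no longer passed the 2-fold limit. The nearest listed genes beside Sox4, 2610307P16Rik and A330102I10Rik, differed by 0.49 and -0.23.

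Sox15 and Sox30 each stand alone in a subgroup. Sox15 (chromosome 11, 69468539 to 69470229), the shortest member at 1691 bases, had levels of -2.13 and -4.28 and so differed by -2.15, or 4.45-fold. That is the largest difference of any member, but its ratios in lowest terms were 2 to 9 and 1 to 19. Its matched genes, all of like low level, had a median difference of -1.23, and its level-matched difference was -0.92 against a matched SD of 1.13. Its neighbours Fxr2 and Cd68 were lower too, by -1.03 and -1.57, or by -0.05 and -0.34 level-matched. Sox30, a factor of late sperm development, stood at 0.64 and 0.46.

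The Pax genes were the family with the largest share of strongly marked members. Of 9, 8 (88.9%) were at least 1 in both genotypes, and the medians of 2.16 in WT and 2.04 in MD1 stood at percentiles 97.5 and 96.1 of autosomal genes. None differed by 2-fold, and the median difference was -0.06, or -0.17 level-matched, with 6 of 9 differences negative. At a mean level of at least 1, 65.6% of autosomal genes had a positive difference. Centring turned the median difference to 0.21.

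Pax1 and Pax9, which pattern the sclerotome and the pharyngeal pouches, were both marked. Pax1 (chromosome 2, 147190730 to 147200784) had the highest mean level of the family, at 2.54 in WT and 2.32 in MD1. Pax9 stood at 1.76 and 1.49. In the kidney, thyroid and B-cell subgroup the order was Pax2, Pax5 and Pax8 in both genotypes. Pax2, a regulator of kidney and optic development, stood at 2.16 and 2.47. Pax5, the B-cell commitment factor, stood at 1.78 and 1.71. Pax8 (chromosome 2, 24276071 to 24331119), required for the thyroid, had the lowest mean level of the family, at 0.74 and 0.72, and its level-matched difference was -0.03. Its ratios in lowest terms were 55 to 34 and 1237 to 734. Pax4 and Pax6, both needed for the endocrine pancreas and Pax6 also for the eye, were alike. Pax4 stood at 2.30 and 2.33, and Pax6 at 2.29 and 2.04.

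Of the muscle and neural crest pair, Pax3 had the largest difference of the family and Pax7 a small one. Pax7 stood at 2.20 in WT and 2.30 in MD1. Pax3 (chromosome 1, 78097842 to 78193711) stood at 1.97 and 1.38, a difference of -0.59. Since Pax3 is long, 95870 bases, genes of like level and length scattered little, with a matched SD of 0.19. Its level-matched difference of -0.70 lay at -3.64 matched SDs, the furthest of any member relative to its scatter. The ratios in lowest terms were 5372 to 1413 and 3382 to 1267. Pax3 remained well marked in MD1, at percentile 89.5 of autosomal genes. The 5 other listed genes with values within 500 kb of its start had a median difference of 0.12, or 0.15 level-matched, and the nearest on each side, Epha4 at 586 kb and Sgpp2 at 113 kb, differed by 0.38 and 0.12.

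Only 2 of the 5 Gata genes differed by less than 0.5 between genotypes. These were Gata4 and Gata5, regulators of heart and endoderm. Gata4 (chromosome 14, 63817752 to 63864097) had the family's highest mean level, at 2.08 in WT and 2.24 in MD1. Gata5 stood at 2.01 and 2.08. Gata6, of the same subgroup, was higher in MD1, from 0.41 to 1.05. Gata2 and Gata3, known from blood and lymphoid cells, were lower. Gata2, which maintains blood stem cells, went from 0.28 to -0.31. Gata3 (chromosome 2, 9778705 to 9800227), the T helper 2 factor, went from 0.34 to -0.61 and had the family's lowest mean level. With 3 of 5 differences positive, the median difference of the family was 0.06, which turned to -0.055 level-matched.

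Gata3 and Gata6 did not reach the 2-fold limit but lay more than 2 matched SDs from genes of like level and length. The Gata3 difference of -0.95 was 1.93-fold, and its level-matched difference of -0.87 lay at -2.78 matched SDs of 0.31. Its ratios in lowest terms were 183 to 149 in WT and 188 to 281 in MD1. The Gata6 difference of 0.65, or 1.57-fold, gave a level-matched difference of 0.60, or 2.22 matched SDs of 0.27, with ratios of 542 to 421 and 257 to 121. For Gata2 the level-matched difference of -0.53 lay at -1.32 matched SDs. By this measure, chosen after the data were seen, Pax3 and Gata3 were more than 2 matched SDs below 0 and Gata6 and Sox4 more than 2 above. That is 2 of 37 members each way, where 2.33% of autosomal genes were below and 2.75% above. For Sox4 the ratios of 1 to 34 and 1 to 16 may each rest on a single ChIP read. By a 2-fold limit on the level-matched difference, no member was lower and Sox4 was higher, where 3.4% and 3.16% of autosomal genes were.

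**Figure D3:**
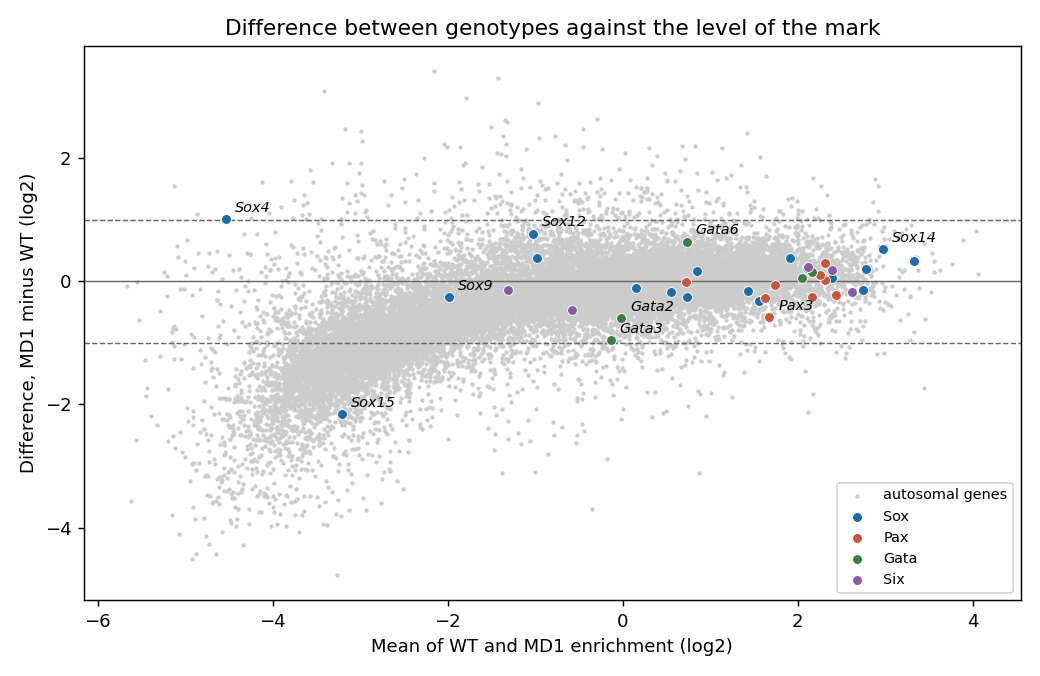
Difference in H3K27me3 between genotypes (MD1 minus WT, log2, vertical axis) against the mean of both levels (log2, horizontal axis). Points are 19835 autosomal genes (grey) and the 37 members (coloured by family), and the series holds 1 ChIP and 1 input library per genotype. Dashed lines mark 2-fold, and only Sox15 among the members lies below the lower one and only Sox4 above the upper one, while the grey cloud drops at low levels.

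The sine oculis homeobox genes, Six2 to Six6, comprised strongly and weakly marked members, with 3 of 5 at least 1 in both genotypes and the other two below 0 in both. Their WT median was 2.0 and their MD1 median 2.24. The median difference was -0.14, which turned to 0.07 level-matched and to 0.13 when centred, and none differed by 2-fold. The eye and forebrain genes Six3 and Six6 were marked in both genotypes. Six3 stood at 2.0 in WT and 2.24 in MD1, and Six6 at 2.30 and 2.48. Six2 (chromosome 17, 86083608 to 86087594), which maintains kidney progenitors, had the family's highest mean level, at 2.71 and 2.53. Six4, a factor of muscle precursors, and its relative Six5 were weakly marked. Six4 (chromosome 12, 74201246 to 74214232) had the family's lowest mean level, at -1.24 and -1.38, with ratios of 85 to 207 and 65 to 166 in lowest terms. Six5 stood at -0.35 and -0.81.

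Of the members that sit closest together on a chromosome, some were alike in level and some were not. Six3 and Six2, 58.1 kb apart on chromosome 17, were both high in both genotypes. Gata4 and Sox7 on chromosome 14, 698 kb and 6 listed genes apart, had nearly the same level, with Sox7 minus Gata4 at -0.09 in WT and -0.02 in MD1. Six6 and Six4, 155 kb apart on chromosome 12, were far apart in level, with Six4 minus Six6 at -3.54 in WT and -3.87 in MD1.

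The genes nearest to Gata3 differed from it, but others within 500 kb were also lower in MD1. The listed genes 4930412O13Rik, with a gap of 2.65 kb to Gata3, and 9230102O04Rik beyond it stood at 2.31 and 2.42 in WT and at 2.63 and 2.53 in MD1. Both were strongly marked and slightly higher in MD1, while Gata3 itself was weakly marked and lower. Over the 7 other listed genes with values within 500 kb of the Gata3 start the median difference was -0.51, or 0.02 level-matched. At Gata6 the value of the overlapping gene went the same way as that of the member. The gene 1010001N08Rik, which lies on the opposite strand and shares 58 bases with Gata6, went from 0.87 to 1.35. The next gene below them, Mib1, was 240 kb away and differed by -1.53, or by -0.24 level-matched. Over the 6 other genes within 500 kb of the Gata6 start the median difference was -1.06, or -0.22 level-matched. Gata3, Gata6, Pax3 and Sox9 were added to the neighbour comparison after their values were seen.

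**Figure D4:**
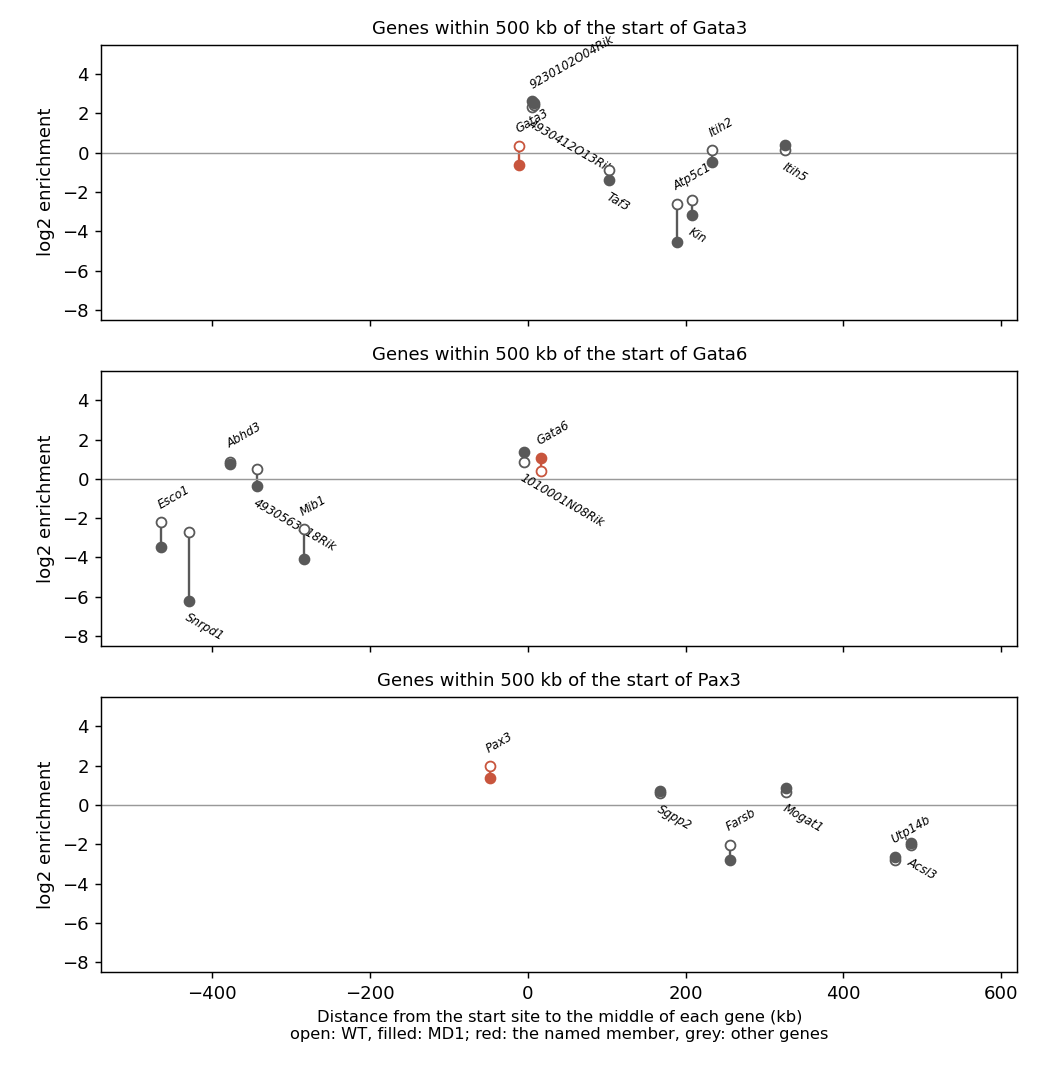
H3K27me3 enrichment (log2, vertical axes) of every listed gene with values whose middle lies within 500 kb of the start site of Gata3, Gata6 or Pax3, by distance from that start in kb (horizontal axis, positive toward higher coordinates), in WT (open) and MD1 (filled). The named member is red, other genes are grey, and the line joining each pair is the difference, which at Gata3 runs from 0.34 down to -0.61 beside 4930412O13Rik (2.31 to 2.63).

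Against other developmental transcription factor families of the same libraries, the members stood between 2 families whose median differences had opposite signs. The 40 autosomal Fox genes, which encode forkhead factors, had median levels of 1.58 in WT and 1.24 in MD1. Of these, 12 (30%) were at least 2-fold lower, against 20.4% of autosomal genes, and none higher, with a median difference of -0.47. Level-matched, 7 were lower by that limit, against 3.4% of autosomal genes. The 39 Hox genes, which encode axial homeodomain factors, went from 1.15 to 1.85, with 15 (38.5%) at least 2-fold higher, against 1.61% of autosomal genes, 1 lower and a median difference of 0.74. Level-matched, 14 were higher, against 3.16%, and 2 lower. Neither family went one way throughout. By sign alone 29 Hox genes were higher in MD1 and 10 lower, and 10 Fox genes were higher and 30 lower. The 37 members started from a WT median, 1.76, above both and had a median difference of -0.02. Level-matched medians were -0.25 for Fox, 0.72 for Hox and -0.03 for the members. Hox genes lie in clusters and are not independent of each other. With 1 library of each kind none of these differences between families was tested.

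**Figure D5:**
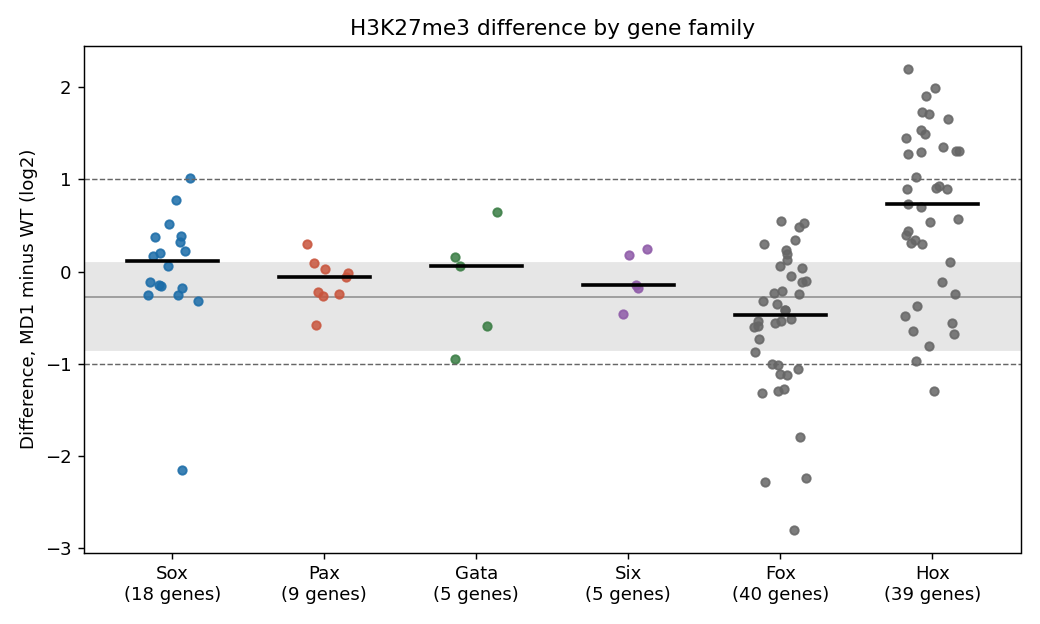
Difference in H3K27me3 (MD1 minus WT, log2) of each gene (point) in the Sox, Pax, Gata, sine oculis homeobox (labelled by its gene name stem), Fox and Hox families. Each family's median is a bar, and the series holds 1 ChIP and 1 input library per genotype. The grey band spans the quartiles of all autosomal genes, -0.85 to 0.09, around their median of -0.27, and the medians of the 4 member families lie between -0.14 and 0.11.

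Partners that these factors bind had lower median levels than the factors themselves. The list held 22 genes for cofactors such as Eya, Dach, Zfpm and Tle proteins and for POU and LIM-complex partners, with median levels of -0.39 in WT and -0.54 in MD1. It was split in level. At least 1 in both genotypes were 7 (31.8%), against 13.5% of autosomal genes, and 12 (54.5%) were below 0 in both, against 61.9%. Of the 22, 2 (9.09%) were at least 2-fold lower, against 20.4% of autosomal genes, and none was higher. The lower ones were Tle1, encoding a Groucho corepressor (-1.47 to -2.75), and Lmo4, encoding a LIM-only adaptor (-2.32 to -3.54). Level-matched they differed by -0.64 and -0.15. The gene Eya1, for a cofactor of sine oculis homeobox proteins, went from -0.21 to -0.91, and Eya2 from 1.54 to 1.83. The list's median difference of -0.19 turned to 0.09 when centred.

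Genes known to act downstream of these factors in cartilage, muscle, glia, blood, thyroid, lens and other tissues ranged from strongly to weakly marked. Over the 28 genes of this list the WT median was 1.05 and the MD1 median 1.03. Of these, 14 were at least 1 in both genotypes, 11 lay between and 3 were below 0 in both (Pmp22, Nppa and Mitf). Among autosomal genes 13.5% were at least 1 in both and 61.9% below 0 in both. None of the 28 differed by 2-fold, where 20.4% of autosomal genes were lower by that limit and 1.61% higher. At a mean level of at least 1 those autosomal shares were 1.06% and 1.77%. The median difference of the list was -0.04, or 0.23 when centred. The largest differences were at Cd79a, a B-cell receptor subunit (0.01 to -0.85), Il5, a T helper 2 cytokine (1.02 to 1.64), Myog (1.76 to 1.14) and Myod1 (3.13 to 3.75). The muscle factors Myog and Myod1 thus differed in opposite directions. Of the 6 cartilage genes in the list, 5 were at least 1 in both genotypes, whereas Sox9 itself was below 0. Col2a1 stood at 1.55 and 1.78, Acan at 1.64 and 1.69, Comp at 2.16 and 2.12, Matn1 at 2.22 and 2.07 and Col11a2 at 1.23 and 1.18. The other was Col9a1, at 0.09 and 0.24.

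The cell type labels were checked against marker genes in the same way. All 10 fibroblast marker genes, among them Col1a1, Vim and Prrx1, were below 0 in WT and in MD1, against 61.9% of autosomal genes. Their WT median was -2.90 and their MD1 median -4.24. A 2-fold lower value in MD1 was found at 6 of the 10, against 20.4% of autosomal genes, but the median level-matched difference of the 10 was 0.15. Markers of epithelium (4 genes) had WT and MD1 medians of 1.3 and 1.15, those of skeletal muscle (3 genes) 1.57 and 1.98, those of endothelium (4 genes) -0.06 and 0.08, those of blood (3 genes) -0.07 and -0.25 and those of autosomal neural genes (3 genes) 0.03 and 0.39. Such small sets were not uniform. Of the skeletal muscle genes Myod1 stood at 3.13 and 3.75, Des at 1.57 and 1.98 and Myf5 at 0.14 and -0.14. Expression was not measured in these files, so the levels of the mark say nothing on how many cells of each type were present.

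The 2 family genes on the X chromosome fall outside the rule, since an X-linked value averages an active and an inactive X. Sox3, the third SoxB1 gene, went from 1.96 in WT to 2.48 in MD1, and Gata1, the erythroid factor, from 1.52 to 2.40. Both were higher in MD1, by 0.52 and 0.88, while the autosomal SoxB1 genes Sox1 and Sox2 differed by -0.15 and -0.16 and Gata2 and Gata3 by -0.59 and -0.95. Other autosomal relatives went both ways. Gata4, Gata5 and Gata6 differed by 0.16, 0.06 and 0.65, and the SoxB2 genes Sox14 and Sox21 by 0.52 and -0.32. At a mean level of at least 1, where Sox3 and Gata1 lay, 65.6% of autosomal genes had a positive difference. No share over other X-linked genes is given here, so whether Sox3 and Gata1 stand out on the X was not tested.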

How the data were processed

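The authors deposited 1 table with a row per gene, giving its position, its strand and a log2 H3K27me3 enrichment for WT and for MD1; the labels are those of the file headers, and the log2 scale was read from the values. The genome build is mm9, per the submitters' processing notes. What the enrichment was divided by, the aligner, the counting and any filters are not given in the sources read here. Positions of genes are printed on mm9 with the first base counted as 1, and promoter windows on GRCm38.p6 (RefSeq).

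From the table the difference (MD1 minus WT), the mean level and the level-matched difference (500 nearest autosomal genes within a length quartile) were computed with Python 3.11.15, pandas 2.3.3 and numpy 2.4.6, and the code was tested on simulated data. Nearly all deposited log2 values (99.98% in WT, 99.95% in MD1, relative tolerance 1e-11) equalled a constant (0.043 in WT, -0.032 in MD1) plus the log2 of 1 whole number over another, neither above 20000. Only the reduced fraction can be recovered, so library depth is unknown and no counting interval is given.

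A gene of these families is not reported here and was left out of every value. Of the members, 8 overlap another listed gene and can share reads with it. The members, subgroups and lists were chosen with earlier results of these data known. The rule named every member with both values, gave positions and ratios for those at least 2-fold different and for the highest and lowest mean level of each family, and named from the partner and downstream lists the genes at least 2-fold different or else the 4 largest differences; other genes given as examples (Pax3, Gata6, Eya1, Eya2 and the cartilage genes among them) were picked after their values were seen. Alternatives were pseudocounts of 0.01 and 1, centring, limits of 1.5-fold and 3-fold, filters on low levels, denominators and overlap, and means for medians.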

Additional observations from a re-analysis of the deposited data

How the results depend on the processing

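Of 56 recomputed values 25 kept their direction and stayed within 0.1 log2 or 1.5 times of the value reported. Centring on the autosomal median turned the median difference positive for the members (0.26), the Pax (0.21) and Six2 to Six6 (0.13) families and the partner (0.087) and downstream (0.23) genes, and raised it to 0.38 for Sox and 0.33 for Gata, by construction, since centring adds a constant. Without the 8 members that overlap another listed gene the members' median difference was 0.025 and their median MD1 level 1.39. Level-matched, the median difference was -0.055 for Gata, -0.17 for Pax, 0.068 for Six2 to Six6 and -0.066 for partner genes, and with 1 added to the linear ratios it was -0.041 for Six2 to Six6. The members' median levels of 1.76 in WT and 1.49 in MD1 became 1.08 and 1.03 as means, and 1.19 and 1.20 over the 26 members with denominators of at least 20. For the 1 member at least 2-fold lower, the number was 4 at a limit of 1.5-fold (Pax3, Gata2 and Gata3 in addition), 2 beyond 2 matched SDs (Pax3 and Gata3, an alternative chosen after seeing the data), and 0 level-matched, above the 25th percentile of mean level, without overlapping members and with 1 added to the linear ratios as a pseudocount. For the 1 member at least 2-fold higher, it was 3 at 1.5-fold (Sox12 and Gata6 in addition), 0 at 3-fold, 2 when centred, 2 beyond 2 matched SDs (the same added alternative), and 0 with a pseudocount of 0.01, with a pseudocount of 1 or above the 25th percentile. No paired analysis was possible because each genotype had 1 library of each kind, and for the same reason no replicate could be left out. The unknown depth limits the short, weakly marked members most, Sox4 and Sox15 above all.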
